A study of Mus musculus with 24 samples.

Results

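The genes described here are 10 markers of hippocampal interneurons, namely Gad1, Gad2, Pvalb, Sst, Vip, Npy, Cck, Reln, Calb2 and Lhx6. They were taken by symbol from the 49568 gene symbols counted in every library, and all 10 were among the 20187 genes that passed the filter on low counts. RNA was sequenced from the hippocampi of individual, experimentally naive male mice on a C57-Bl/6J background, aged 21 to 23 months, with 6 mice in each of 4 groups. WT mice carried unmutated MSK1, and MSK1 KD mice were homozygous for a knock-in mutation, carried in all cells, that inactivates the N-terminal kinase domain of MSK1. Both genotypes were kept as separate homozygous lines. WTSH and KDSH mice lived in standard housing, whereas WTEE and KDEE mice moved at 18 months to large cages with a running wheel, tubes, a ladder and toys that were changed regularly. The comparisons ask whether enrichment altered these genes in the aged hippocampus, and whether it did so without MSK1 kinase activity.

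The study left 3 libraries out of its own analysis, WTSH mice 4 and 7 and KDSH mouse 6, and they are shown apart below. The groups then held 4 WTSH, 6 WTEE, 5 KDSH and 6 KDEE mice. The 21 kept libraries had between 27410239 and 71907130 reads counted to genes. A point mutation leaves no trace in gene counts, so the levels of Rps6ka5, which encodes MSK1 and had 1119 ± 101 normalized counts in WTSH (SD, n = 4) and 1158 ± 21.9 in KDSH (SD, n = 5), do not check the genotype labels. One library, that of WTEE mouse 10, stood apart from the other 20 in most of these genes, and the values that it moves most are given with and without it. Each library was made from whole hippocampus, so that fewer cells of a type and less RNA per cell cannot be told apart.

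Interneurons are the inhibitory cells of the hippocampus. They make GABA from glutamate with the enzymes encoded by Gad1 and Gad2, and they are sorted into classes by the calcium-binding proteins and neuropeptides they contain. Fast-spiking basket and axo-axonic cells contain parvalbumin and control the output of pyramidal cells at the soma and axon initial segment, somatostatin cells contact distal dendrites, and VIP and calretinin cells largely contact other interneurons. Several of these transcripts are not confined to interneurons, since Cck is also made by pyramidal cells, Calb2 by mossy cells and Reln by Cajal-Retzius cells. MSK1 phosphorylates the transcription factor CREB and histone H3 downstream of BDNF, and CREB binds the cAMP response element.

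The bases around the closest matches to this element are shown because MSK1 acts on CREB and because the somatostatin gene is the textbook example of it. The element was searched on both strands, as its full letters TGACGTCA and as its core TGACG, in windows of 250 bases before to 50 after each RefSeq start (build GRCm38.p6). Of the 10 genes, 9 had a window, Calb2 having no entry. The full element was in 588 of 32851 windows of all genes (1.79%) and the core, which every full element also holds, in 6837 (20.8%). Of the 9 genes with a window, 4 held the core (44.4% of genes) and 1 of them the full element. This is a share of genes and the 20.8% a share of windows, so the values are not directly comparable. The 9 genes had 12 windows, and each of the 4 genes with the core had 1. Capitals mark the match, and each run is 30 bases in the direction of transcription.
Sst: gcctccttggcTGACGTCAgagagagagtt
Cck: tcctgctggactgCGTCAgcactgggtaaa
Vip: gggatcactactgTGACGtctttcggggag
Gad2: tccatttcccttcCGTCActctctcatctc
The Sst run lies on chr16:23890874-23890903 on the minus strand, with the full element beginning 48 bases before the start. The Cck run lies on chr9:121495725-121495754 (minus strand, core 47 bases before the start) and the Vip run on chr10:5639126-5639155 (plus strand, 79 bases before). The Gad2 run lies on chr2:22622281-22622310 (plus strand, 33 bases before). The Sst and Gad2 runs fall inside the gene as GENCODE draws it, whose first exon begins further upstream than that of RefSeq. The windows of Gad1, Pvalb, Npy, Reln and Lhx6 held neither set of letters, which says only that they are not within these bases. The stretches just before the starts of Pvalb (chr15:78206401-78206490, minus strand) and Npy (chr6:49822620-49822709, plus strand), the genes with the highest fold changes in the housing comparison below, are given for comparison.
Pvalb: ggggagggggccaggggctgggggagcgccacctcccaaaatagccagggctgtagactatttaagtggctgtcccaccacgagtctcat
Npy: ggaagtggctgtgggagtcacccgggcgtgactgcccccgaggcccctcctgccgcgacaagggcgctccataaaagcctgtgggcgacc

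Levels of different genes were compared as CPM per kilobase of exon, that is, as counts divided by the TMM-scaled library size and by the exon length. On this scale Sst was the most abundant of the 10 transcripts, at 315 ± 60.7 (SD, n = 21 mice), followed by Cck at 197 ± 29.99 and Npy at 73.4 ± 18.3. Gad1 (48.5 ± 3.97), Pvalb (36.0 ± 9.36), Gad2 (27.6 ± 3.07) and Calb2 (24.5 ± 4.99) formed a middle range, and Vip (5.19 ± 0.91), Lhx6 (4.52 ± 0.331) and Reln (3.90 ± 0.779) were lowest. Sst exceeded Cck, Cck exceeded Npy and Npy exceeded Gad1 in every one of the 21 mice. The order was less clear lower down, where Gad2 exceeded Calb2 in 15 of 21 mice, Vip exceeded Lhx6 in 17 and Lhx6 exceeded Reln in 16. The levels within each gene are given below as normalized counts, that is, counts scaled to a common library size.

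**Figure D1:**
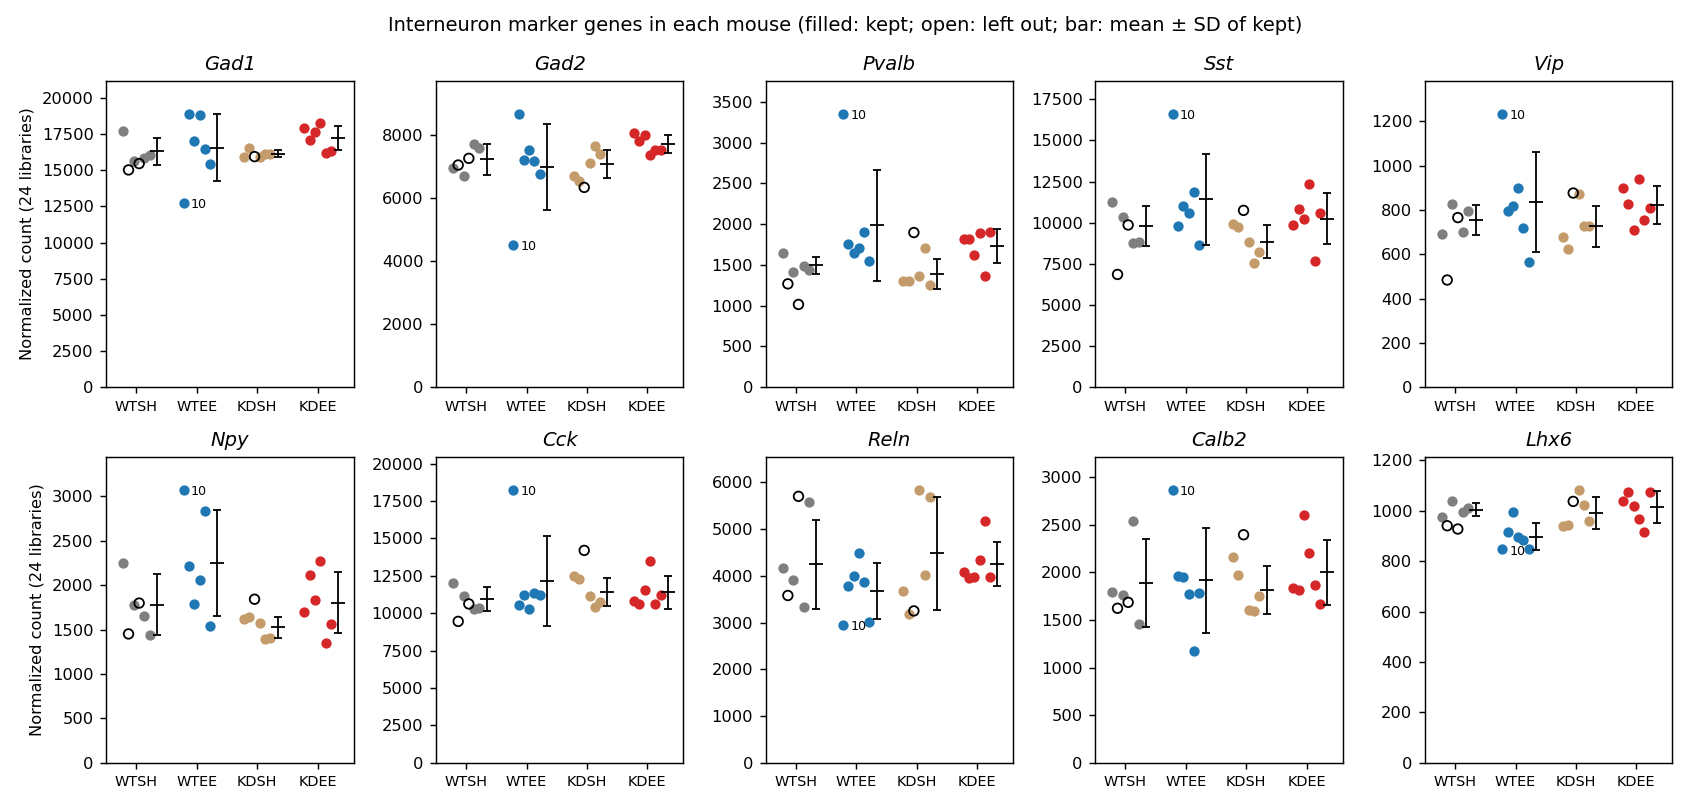
Normalized counts (y axis, from 0, all 24 libraries scaled together) of each marker gene in every mouse of the 4 groups (x axis). Filled points are the 21 kept mice, open points the 3 left-out libraries, and bars the mean ± SD of the kept mice; WTEE mouse 10 is numbered and is the highest kept point for Pvalb, Sst, Vip, Npy, Cck and Calb2 and the lowest for Gad1 and Gad2.

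Gad1 (chr2:70553072-70602014, plus strand, in build GRCm38 as GENCODE annotates it, like the positions of the genes that follow) encodes GAD67, the GABA-making enzyme found throughout the cell. It varied little from mouse to mouse. Its normalized counts in WTSH mice were 16791, 16992, 17304 and 19069, and in KDSH mice 17139, 17160, 17262, 17374 and 17820. WTEE mice ran from 13658 to 20275 with a median of 17922, and KDEE mice from 17428 to 19618 with a median of 18542. All groups overlapped, and the lowest value of all was that of WTEE mouse 10.

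Gad2 (chr2:22622205-22693874, plus strand) encodes GAD65, the isoform concentrated at axon terminals. WTSH mice had 7182, 7513, 8161 and 8262 normalized counts, and KDSH mice 7065, 7227, 7661, 7956 and 8180. The WTEE range was the widest, from 4841 in mouse 10 to 9281 in mouse 11 (median 7708), while KDEE mice held between 7917 and 8683 (median 8210). The log2 ratio of Gad1 to Gad2 had a median of 1.16 over the 21 mice, was highest at 1.496 in WTEE mouse 10, and was next highest at 1.34.

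Lhx6 (chr2:36081953-36105408, minus strand) is a transcription factor of interneurons born in the medial ganglionic eminence, which include the parvalbumin and somatostatin classes, and it varied least of the 10. Its exons share 104 bases with Gm27953 on the same strand. Its biological coefficient of variation in edgeR was 0.0726, against a median of 0.140 over all genes tested. WTSH mice had 1051, 1066, 1087 and 1113 normalized counts, and WTEE mice from 906 to 1060 with a median of 957. KDSH mice had 1010, 1019, 1033, 1095 and 1168, and KDEE mice from 984 to 1149 with a median of 1102. Only WTEE mouse 13, the highest of its group, reached into the WTSH range.

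Pvalb (chr15:78191114-78206400, minus strand) encodes parvalbumin, the calcium buffer of fast-spiking cells. WTSH mice had 1512, 1545, 1596 and 1772 normalized counts, and WTEE mice from 1659 to 3594 with a median of 1855. KDSH mice had 1353, 1406, 1407, 1463 and 1824, and KDEE mice from 1466 to 2036 with a median of 1940. Of the 5 KDSH mice 4 lay below every KDEE mouse, and mouse 18 at 1824 lay among them. Of the WTEE mice, mouse 10 at 3594 was far above the next at 2046.

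Sst (chr16:23889573-23890958, minus strand) encodes somatostatin, the inhibitory peptide of dendrite-targeting cells. WTSH mice had 9391, 9470, 11081 and 12126 normalized counts and KDSH mice 8045, 8856, 9518, 10460 and 10684. WTEE mice ran from 9278 to 17811 (median 11570) and KDEE mice from 8223 to 13248 (median 11135). Every group overlapped every other.

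Npy (chr6:49822710-49829507, plus strand) encodes neuropeptide Y, found in part of the somatostatin cells and in neurogliaform and ivy cells. Its counts were 1549, 1772, 1902 and 2423 in WTSH mice and 1492, 1509, 1695, 1747 and 1767 in KDSH mice, the narrowest group. WTEE mice spread from 1651 to 3296 (median 2294), with mice 10 and 17 (3044) well above the rest, and KDEE mice from 1445 to 2444 (median 1888).

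Vip (chr10:5639218-5647617, plus strand) encodes the peptide of disinhibitory interneurons and had group means of 809 ± 72.8 in WTSH (SD, n = 4), 897 ± 242 in WTEE (n = 6), 780 ± 100 in KDSH (n = 5) and 882 ± 94.2 in KDEE (n = 6). WTEE held both the lowest mouse (603, mouse 21) and the highest (1322, mouse 10) of all 21. Cck (chr9:121489824-121495694, minus strand) encodes cholecystokinin, a peptide of basket cells that also carry cannabinoid receptors, and had 11758 ± 910 in WTSH, 13008 ± 3246 in WTEE, 12280 ± 1032 in KDSH and 12201 ± 1199 in KDEE. The WTEE mean was raised by mouse 10, at 19576, since the other 5 mice lay between 11071 and 12147.

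Calb2 (chr8:110137502-110168210, minus strand) encodes calretinin, and with a coefficient of variation of 0.197 it varied most of the 10. Its means were 2027 ± 487 in WTSH (SD, n = 4), 2054 ± 588 in WTEE (n = 6), 1952 ± 269 in KDSH (n = 5) and 2142 ± 366 in KDEE (n = 6). Reln (chr5:21884454-22344702, minus strand) encodes reelin, a large secreted glycoprotein that signals through Vldlr and Lrp8. Its exons share 246 bases with the antisense gene Gm10475, from which unstranded counts cannot tell it apart. Its counts fell into high and low mice within the standard-housed groups. KDSH mice had 3423, 3954, 4300, 6120 and 6299, and WTSH mice 3573, 4188, 4496 and 6002, while WTEE ran from 3164 to 4850 (median 4093) and KDEE from 4222 to 5548 (median 4320).

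In the housing comparison averaged over both genotypes, Pvalb, Npy and Sst had positive log2 fold changes with enrichment in both genotypes, and none passed correction over all genes. A gene was called where the edgeR quasi-likelihood test gave a Benjamini-Hochberg adjusted p under 0.05 and the log2 fold change was beyond 0.38 in either direction. By that rule 0 of the 10 genes were called, against 1 of all 20187 genes (0.00495%). At an unadjusted p under 0.05, 3 of the 10 were higher and 0 lower, where 18.9% of all genes passed in either direction. Over the 10 genes 8 fold changes were positive, with a median of 0.07 on the log2 scale, against 0.01 over all genes tested.

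Pvalb had the largest of these fold changes, at 0.36 (SE 0.112, 95% CI 0.13 to 0.59, edgeR adjusted p = 0.196). Without WTEE mouse 10 it was 0.26 (edgeR adjusted p = 0.0979). DESeq2 gave 0.36 with an adjusted p of 0.085. Npy had a log2 fold change of 0.29 (SE 0.117, edgeR adjusted p = 0.235), and 0.24 without that mouse. Sst had 0.21 (SE 0.0999, edgeR adjusted p = 0.259), and 0.15 without it, where it no longer had an unadjusted p under 0.05. Gad1 did have one without that mouse, at 0.09 (edgeR adjusted p = 0.214), against 0.05 with it.

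**Figure D2:**
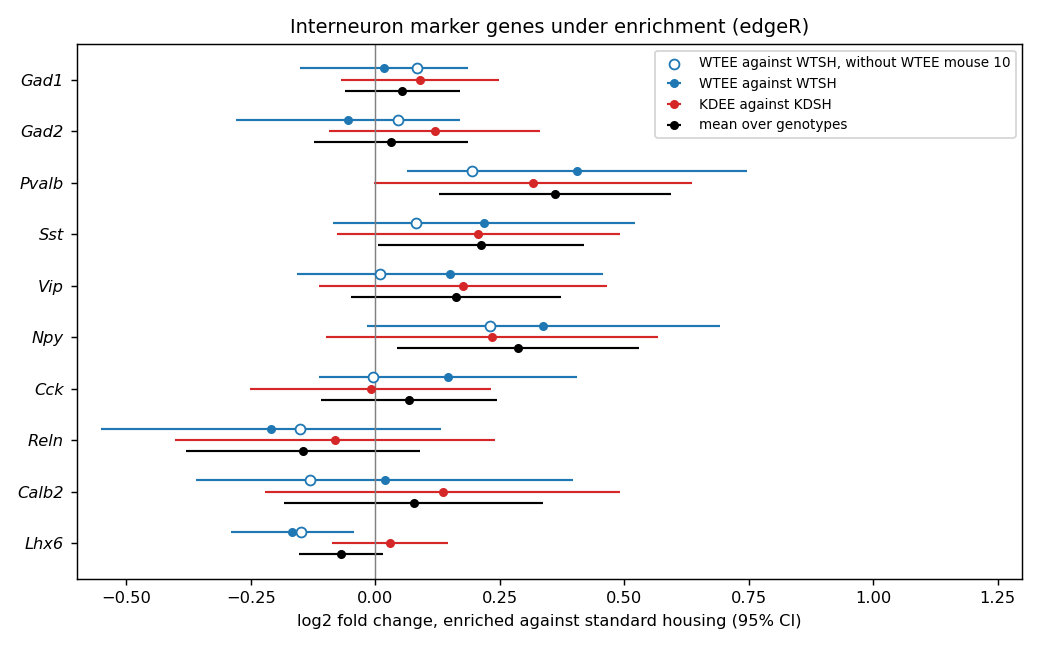
Log2 fold change (x axis) of each marker gene (y axis) in enriched against standard-housed mice, from the edgeR fit, with 95% confidence intervals as lines. Blue is WTEE against WTSH, red KDEE against KDSH, black the mean over genotypes and open blue the WT value without WTEE mouse 10, which for Pvalb moves from 0.41 to 0.19 and for Cck from 0.15 to -0.01.

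In WT mice alone, 0 of the 10 genes were called by edgeR, as were 0% of all genes, and DESeq2 also called 0 of them. At an unadjusted p under 0.05 there were 2 of 10, where 6.55% of all genes passed. Pvalb was one, with a log2 fold change of 0.41 (SE 0.164, 95% CI 0.06 to 0.75, edgeR adjusted p = 0.651), which was 0.19 without WTEE mouse 10. Lhx6 was the other, and it was lower in enriched WT mice, at -0.17 (SE 0.0594, 95% CI -0.29 to -0.04, edgeR adjusted p = 0.651). Its value without that mouse was -0.15. Gad1 differed by 0.02 (95% CI -0.15 to 0.19) and Gad2 by -0.06 (95% CI -0.28 to 0.17), intervals that leave room for changes of either sign. Without mouse 10 these values were 0.08 for Gad1 and 0.04 for Gad2, which changed sign. No gene of the 10 separated WTEE from WTSH without overlap, as 0.986% of all genes did.

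In MSK1 KD mice, 0 of the 10 genes were called by edgeR (0% of all genes) and 0 by DESeq2. None reached an unadjusted p under 0.05, where 11.6% of all genes did. Pvalb came closest, at 0.32 (SE 0.154, 95% CI -0.0029 to 0.64, edgeR adjusted p = 0.433). Sst had 0.21 and Npy 0.23, with intervals that included no change. Leaving out WTEE mouse 10, which is in neither group but sets the common spread, lowered the edgeR adjusted p of Pvalb to 0.0896. None of the 10 separated KDEE from KDSH without overlap, as 1.84% of all genes did.

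The interaction of genotype and housing asks whether enrichment acted differently without MSK1 kinase activity. For Pvalb the effect of enrichment was 0.09 larger in WT on the log2 scale (SE 0.223, 95% CI -0.38 to 0.55, edgeR adjusted p = 1), and for Sst 0.01 larger (95% CI -0.40 to 0.42). These intervals are too wide to show that the genotypes responded alike. Both directions turned without WTEE mouse 10, to -0.13 for Pvalb and -0.13 for Sst, and that of Sst also turned when any of several other mice was left out. Lhx6 had the smallest p, with an effect of enrichment 0.20 lower in WT (log2 difference -0.20, SE 0.0818, edgeR adjusted p = 1). It was the 1 gene of 10 at an unadjusted p under 0.05, where 3.26% of all genes passed, and 0 of 10 were called by either tool (0% of all genes by edgeR).

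Between genotypes in standard housing, 0 of the 10 genes were called by edgeR or DESeq2 (0% of all genes by edgeR) and 0 reached an unadjusted p under 0.05, where 1% of all genes did. Fold changes lay between -0.22 for Npy and 0.08 for Reln, and 6 of the 10 changed sign when the 3 left-out libraries, all standard-housed, were included. Between WTEE and KDEE mice 0 were called by either tool (0% by edgeR) and 2 had an unadjusted p under 0.05 (4.99% of all genes). Lhx6 was lower in WTEE than in KDEE mice, at -0.18 (SE 0.0534, 95% CI -0.29 to -0.07, edgeR adjusted p = 0.331), the smallest unadjusted p of any of these genes in any comparison. Npy was higher in WTEE, at 0.32 (SE 0.152, edgeR adjusted p = 0.957), and 0.21 without mouse 10. Over both housings Npy was lower in MSK1 KD mice by a log2 difference of -0.27 (SE 0.116, edgeR adjusted p = 1), the 1 gene of 10 at an unadjusted p under 0.05 (1.9% of all genes), with 0 called by either tool (0% by edgeR). Without WTEE mouse 10 it was -0.22 and no longer at that threshold. No gene of the 10 separated the genotypes in either housing, as 0.644% of all genes did between KDSH and WTSH and 0.624% between WTEE and KDEE.

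Markers of other cells also differed with housing at an unadjusted p under 0.05, where 18.9% of all genes passed in either direction. Of those given here 0 were called. All 8 choroid plexus markers were higher in enriched mice over both genotypes, 7 of them at an unadjusted p under 0.05. Their summed level ranged from 25.6 to 105 CPM in KDSH mice, from 87.0 to 9809 in KDEE, from 28.9 to 4446 in WTSH and from 45.9 to 6007 in WTEE. All 5 oligodendrocyte markers were higher too, 4 of them at an unadjusted p under 0.05, and Mbp, a main myelin protein, had a log2 fold change of 0.26. Of 8 striatal markers 3 were higher at that threshold and 0 lower, with summed levels of 149 to 215 CPM over all mice. The part of these cells in the values of Pvalb, Npy and Sst was not tested.

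The subtype markers were also taken per unit of Gad1 and Gad2 together, as the log2 ratio in each mouse, so that a difference in the total of GABAergic RNA would drop out. For Pvalb the ratio was -3.98 ± 0.0559 in WTSH (SD, n = 4) and -3.61 ± 0.622 in WTEE (SD, n = 6), a difference of 0.37 (2-sided exact permutation test, p = 0.0476, adjusted p = 0.735 over 32 tests). Without WTEE mouse 10, an alternative chosen after seeing the data, the WTEE ratio was -3.86 ± 0.137 (SD, n = 5) and the difference 0.12 (2-sided exact permutation test, p = 0.0794, adjusted p = 0.635). In MSK1 KD mice it was -4.07 ± 0.161 in standard housing (SD, n = 5) and -3.86 ± 0.17 in enrichment (SD, n = 6), a difference of 0.22 (2-sided exact permutation test, p = 0.0606, adjusted p = 0.735). With all mice these 2 comparisons of Pvalb had the smallest p-values of the 32. Without WTEE mouse 10 the smallest was that of Lhx6 in WTEE against WTSH. Its difference was -0.22 (2-sided exact permutation test, p = 0.0317, adjusted p = 0.635). Of the 32 tests 0 passed correction with or without that mouse. With 4 to 6 mice a group, the smallest p-value an exact test can give is too large for any single ratio to pass alone. The absence of a passing ratio therefore does not show that the ratios were alike.

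Other genes of inhibitory neurons were read from lists. Among 5 genes of GABA packaging, reuptake and breakdown, 0 were called in any comparison. In WTEE against KDEE all 5 had negative log2 fold changes, 4 of them at an unadjusted p under 0.05, where 4.99% of all genes passed, and 2 without WTEE mouse 10. Of 4 astrocyte markers 2 were lower at that threshold in the same comparison, and 3 without that mouse, and their part in the values of the 5 genes was not tested. Among 12 transcription factors of interneurons 0 were called, and Satb1 and Dlx1, the most abundant, differed by 0.00 and 0.05 between housings over both genotypes.

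Of 7 genes enriched in parvalbumin cells 0 were called between housings over both genotypes, and 4 were higher and 3 lower. At an unadjusted p under 0.05, 1 was higher and 1 lower, where 18.9% of all genes passed in either direction. Fold changes of the 7 ran from -0.14 to 0.29 on the log2 scale. Kcnc1 and Kcnc2, the most abundant of the 7, encode the fast Kv3 potassium channels of these cells. They had log2 fold changes of -0.14 and -0.08, against 0.36 for Pvalb itself. Without WTEE mouse 10 these values were -0.08 and -0.07, against 0.26, and again 4 of the 7 genes were higher and 3 lower. Of 5 somatostatin cell genes 0 were called, and 2 were higher and 3 lower, with log2 fold changes from -0.33 to 0.27. At an unadjusted p under 0.05, 1 was higher and 1 lower. The lower was Nos1, neuronal nitric oxide synthase, at -0.33 (edgeR adjusted p = 0.208). Its normalized counts in WTEE mice had a median of 5095 and a lowest value of 2209, that of mouse 10. Without WTEE mouse 10, 3 of the 5 genes were higher and 2 lower, and again 1 was higher and 1 lower at an unadjusted p under 0.05. Of 9 genes of caudally derived interneurons, the origin of VIP and Cck cells, 0 were called and 2 were higher at an unadjusted p under 0.05, while Cnr1, the cannabinoid receptor, and Cxcl14, a chemokine, differed by -0.08 and 0.12. Median log2 fold changes of these 3 lists were 0.08, -0.04 and 0.10, against 0.01 over all genes, and 0.03, 0.01 and 0.09 without WTEE mouse 10.

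Receptors for these peptides and for reelin had mostly negative fold changes. Of 13 such genes 10 were lower in enriched mice over both genotypes, with a median log2 fold change of -0.12 against 0.01 over all genes. Of the 10, 0 were called and 4 had an unadjusted p under 0.05, where 18.9% of all genes passed in either direction. Without WTEE mouse 10 these were 11 lower, 4 at that threshold and a median of -0.08. Both Sstr4 and Sstr1, which encode somatostatin receptors, were among the 4, Sstr4 at -0.45 (edgeR adjusted p = 0.235) and Sstr1 at -0.22 (edgeR adjusted p = 0.238). The other 2 were Vipr1, a VIP receptor, at -0.22, and Lrp8, a reelin receptor, at -0.20. Npy1r differed by 0.02 and Npy2r by -0.09, and Dab1, the adaptor that carries the reelin signal, by -0.05.

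Covariation between mice was measured on deviations of log2 CPM from the mean of each mouse's own group, so that group differences do not enter. Sst varied together with Npy and with Cck from mouse to mouse, and Cck ran opposite to Gad2. Of the 45 pairs of genes, 5 had an adjusted p under 0.05 by permutation within groups, 4 by Spearman's rho and 3 by both. The median r over the 45 pairs was 0.20, against -0.00 over all pairs of tested genes, whose quartiles were -0.28 and 0.28.

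**Figure D3:**
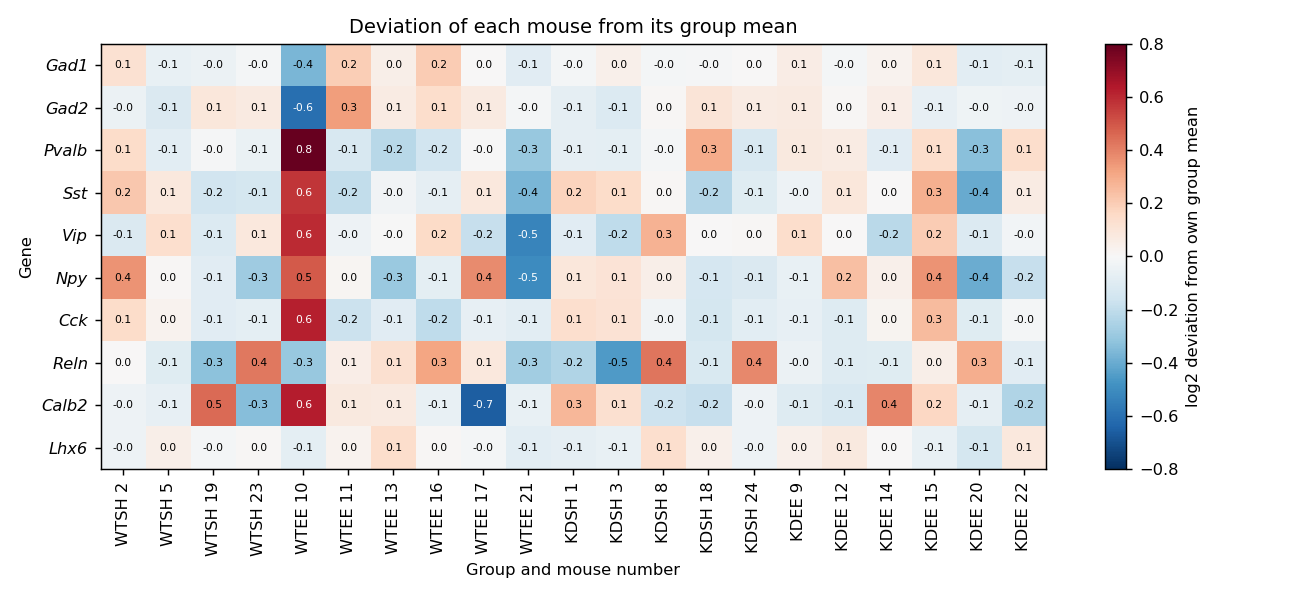
Deviation of each of the 21 kept mice (x axis) from the mean of its own group on the log2 CPM scale, for each marker gene (y axis), with red above and blue below the group mean. WTEE mouse 10 is above its group in Pvalb, Sst, Vip, Npy, Cck and Calb2 and below it in Gad1, Gad2 and Reln.

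The closest pair was Sst and Npy, with r = 0.85 (n = 21, permutation p = 2e-05, adjusted p = 0.0009) and rho = 0.83 (permutation p = 5e-05, adjusted p = 0.00225). It was 0.82 without the 2 mice farthest from the median and 0.81 without WTEE mouse 10. Sst and Cck had r = 0.84 (permutation p = 0.00014, adjusted p = 0.0021) and rho = 0.78 (permutation p = 0.00022, adjusted p = 0.0033), with r = 0.69 without the 2 farthest mice and 0.72 without WTEE mouse 10. Both pairs passed correction whichever of the 21 mice was left out.

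Gad2 and Cck had r = -0.89 (permutation p = 0.00014, adjusted p = 0.0021) and rho = -0.80 (permutation p = 0.00019, adjusted p = 0.0033). The r was -0.71 without the 2 farthest mice and -0.62 without WTEE mouse 10, still past correction (permutation, adjusted p = 0.0306). Pvalb and Npy (r = 0.64, permutation p = 0.00294, adjusted p = 0.0331, rho = 0.56, permutation p = 0.0159, adjusted p = 0.108) did not pass by rho, nor did Npy and Cck (r = 0.64, permutation p = 0.00382, adjusted p = 0.0344, rho = 0.57, permutation p = 0.0103, adjusted p = 0.0926). Without the 2 farthest mice these were 0.52 and 0.53. Without WTEE mouse 10 they were 0.53 and 0.52 and no longer passed (permutation, adjusted p = 0.129 for each), as happened when several other mice were left out.

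The 2 GABA-making enzymes had r = 0.80 (permutation p = 0.0126, adjusted p = 0.0709) and rho = 0.42 (permutation p = 0.0829, adjusted p = 0.339). The relation rested on WTEE mouse 10, without which r was 0.43, and it was 0.45 without the 2 farthest mice. Likewise Pvalb and Cck had r = 0.72 with that mouse and 0.10 without it. The number of positive pairs was 23 of 45 with all mice and 31 of 45 without mouse 10, when 3 pairs passed correction.

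**Figure D4:**
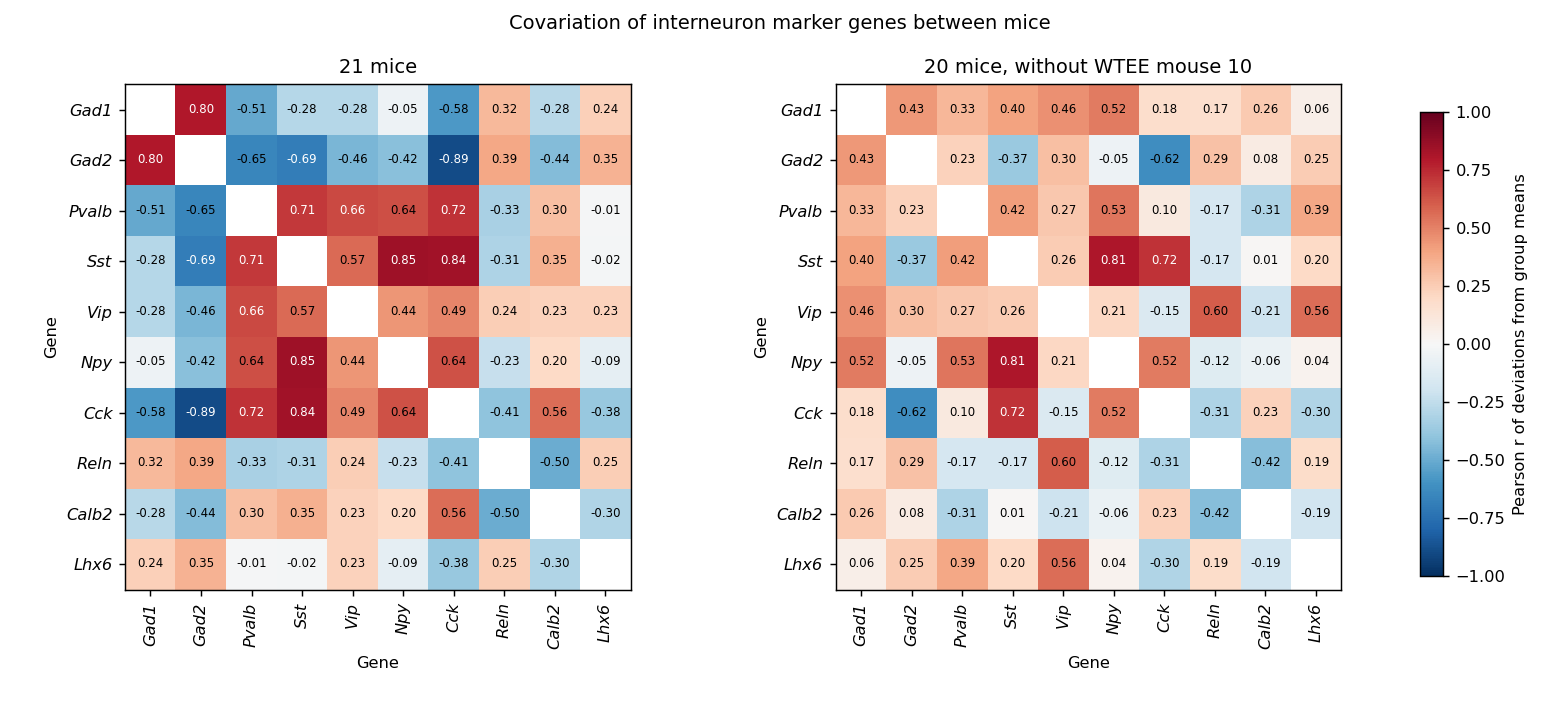
Pearson r between marker genes (both axes) of log2 deviations from group means, over 21 mice at left and over the 20 mice without WTEE mouse 10 at right, red positive and blue negative. Sst with Npy (0.85 and 0.81) and Sst with Cck (0.84 and 0.72) stay high in both panels, whereas Pvalb with Cck drops from 0.72 to 0.10 and Gad1 with Gad2 from 0.80 to 0.43.

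WTEE mouse 10 had the highest deviation of all 21 mice in Pvalb (0.81), Calb2 (0.63), Cck (0.62), Vip (0.60), Sst (0.57) and Npy (0.49), and the lowest in Gad2 (-0.60) and Gad1 (-0.37). Its deviation was -0.30 in Reln and -0.08 in Lhx6, each with 2 mice lower. The 6 genes that were high have exons of 0.566 to 3.402 kb in all, and the 4 that were low have 4.805 to 23.738 kb. Over the 19459 tested genes with an annotated exon length, the library of this mouse fell by 0.11 on the log2 scale with each doubling of length (slope -0.109), whereas the other 20 libraries had slopes from -0.0239 to 0.0488. With that slope as a term in the edgeR fit, an alternative chosen after seeing the data, the housing fold change of Pvalb over both genotypes was 0.17 (edgeR adjusted p = 0.756) and that of Sst 0.09. In the same fit Lhx6 had -0.13 in WTEE against KDEE, still at an unadjusted p under 0.05. Its values of -0.11 in WTEE against WTSH and -0.15 for the interaction were no longer at that threshold. None of the 10 genes had a deviation related to the slope after correction. Pvalb (r = -0.71, permutation p = 0.0377, adjusted p = 0.126, rho = -0.48, permutation p = 0.0379, adjusted p = 0.189) had an r of -0.21 without mouse 10 and -0.23 without the 2 farthest mice. Gad2 had r = 0.68 and Gad1 r = 0.62, against 0.05 and 0.08 without mouse 10. Cck (r = -0.76, permutation p = 0.0177, adjusted p = 0.126, rho = -0.40, permutation p = 0.0891, adjusted p = 0.297) had an r of -0.34 without mouse 10 and -0.35 without the 2 farthest mice. Lhx6 (r = 0.52, permutation p = 0.0325, adjusted p = 0.126, rho = 0.54, permutation p = 0.0187, adjusted p = 0.187) had 0.51 without mouse 10 and 0.36 without the 2 farthest mice.

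**Figure D5:**
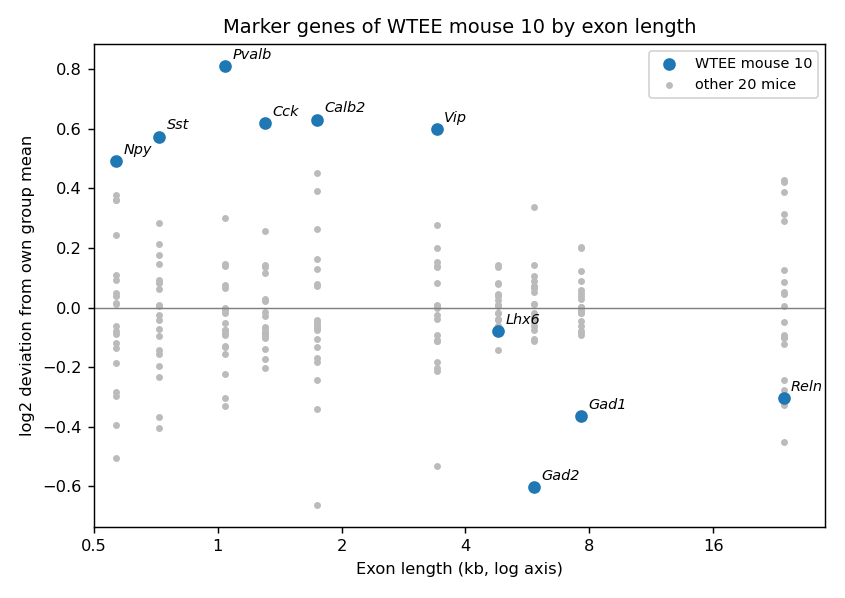
Log2 deviation from the own group mean (y axis) against total exon length in kb (x axis, log scale) for the 10 marker genes, with WTEE mouse 10 in blue and the other 20 mice in grey. In mouse 10 the 6 genes up to 3.402 kb lie at 0.49 or above and the 4 genes from 4.805 kb lie at -0.08 or below.

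For 9 of the genes the most alike of all other tested genes are given over the same 21 deviations, as a description. Npy was most like Cort, which encodes cortistatin, a peptide related to somatostatin (r = 0.91, and 0.88 without WTEE mouse 10). Reln was most like Zdhhc22 (0.93 and 0.93) and Necab1 (0.92 and 0.91), Sst like Pex14 (0.96 and 0.94) and Cck like Pmm1 (0.98 and 0.92). Gad2 was most like Pcyox1 (0.94 and 0.77), Pvalb like BC004004 (0.93 and 0.80), Vip like Camk2n1 (0.91 and 0.83), Calb2 like Gpc3 (0.85 and 0.80) and Lhx6 like Cux1 (0.80 and 0.82).

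None of 100 relations between these genes and the markers of other cells or regions, structural RNA or library size passed correction. Over the 21 mice Calb2 had the highest coefficient, with markers of thalamus and habenula (r = 0.68, permutation p = 0.00838, adjusted p = 0.265, rho = 0.52, permutation p = 0.0298, adjusted p = 0.559). This r was 0.72 without the 2 farthest mice and 0.64 without WTEE mouse 10. Calb2 and the Cajal-Retzius markers had r = 0.56 (permutation p = 0.0106, adjusted p = 0.265, rho = 0.56, permutation p = 0.0165, adjusted p = 0.55), 0.26 without the 2 farthest mice and 0.72 without WTEE mouse 10. With the mossy cell markers the r of Calb2 was 0.37 (permutation p = 0.21, adjusted p = 0.766), 0.09 without the 2 farthest mice and 0.70 without WTEE mouse 10. Structural RNA had the smallest p-values, with Cck (r = 0.42, permutation p = 0.0054, adjusted p = 0.265, rho = 0.21, permutation p = 0.336, adjusted p = 0.754, and r = 0.39 without the 2 farthest mice) and with Npy (r = 0.53, permutation p = 0.00596, adjusted p = 0.265, rho = 0.51, permutation p = 0.0153, adjusted p = 0.55, and r = 0.45 without the 2 farthest mice). Pvalb and the oligodendrocyte markers had r = 0.40 (permutation p = 0.0237, adjusted p = 0.335, rho = 0.52, permutation p = 0.0148, adjusted p = 0.55), 0.40 without the 2 farthest mice and 0.57 without WTEE mouse 10. Reln and the Cajal-Retzius markers had r = -0.26 (permutation p = 0.228, adjusted p = 0.787, rho = -0.25, permutation p = 0.261, adjusted p = 0.754, and r = -0.04 without the 2 farthest mice). Those markers, Trp73, Lhx1 and Lhx5, summed to between 3.64 and 12.8 CPM. For the genes of the pairs that passed by both r and rho, WTEE mouse 10 moved the relation with markers of hippocampal excitatory neurons. With these markers the r of Cck was -0.04 over all mice and 0.71 without mouse 10, and that of Gad2 0.15 and -0.56. For Sst the values were 0.14 and 0.63, and for Npy 0.19 and 0.51. The part of excitatory neurons in the covariation of these genes was not tested.

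The 3 left-out libraries did not share a direction in these genes. With all 24 libraries scaled together, WTSH mouse 4 lay below the kept WTSH range in 6 of 10 genes and above it in 0, and it was below every kept mouse in Sst (6853), Vip (484) and Cck (9454). WTSH mouse 7 was inside the range of its group in 6 genes, above it in Reln and below it in 3, with Pvalb at 1014 below every kept mouse. KDSH mouse 6 was above its group in 6 genes, including Pvalb (1897), Sst (10748), Npy (1842) and Cck (14199), below it in Gad2 and inside it in 3, and within the range of all kept mice in all 10. Structural RNA made up 5.46 to 22.7% of counts in these libraries and 0.0329 to 2.48% in the kept ones. With all 24 libraries the housing fold change of Pvalb over both genotypes was 0.38 and 0 of the 10 genes were called.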

How the data were processed

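The authors deposited raw counts per gene for 24 libraries of poly-A RNA. They had trimmed the reads (Skewer), aligned them to mouse build GRCm38 (STAR 2.5) and counted those that aligned uniquely, without regard to strand (HTSeq 0.6.1p1, minimum quality 10). Summary rows that name no gene (8.41 to 15.7% no feature and 4.14 to 6.57% ambiguous in kept libraries, as a percent of all rows) were left out of totals. The 10 genes and all gene lists were chosen with earlier results of these data known. Named genes besides the 10 are, for each list, its most abundant genes, its receptors or ligands described beside a marker, and the genes most alike in deviation. Some values are not reported here.

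Counts were filtered with filterByExpr, TMM-normalized and fitted with edgeR 4.0.16 (R 4.3.3) on 4 group means over 21 libraries, so that all groups share the estimate of spread. DESeq2 1.42.0, its size factors in edgeR, no filter, all 24 libraries, leaving out each library and the length slope as a covariate were alternatives. On simulated counts for WTEE against WTSH, with 200 of 19918 genes changed by a log2 value of 1, 182 (91%) were called with 4 false calls. Correlations used log2 CPM with a prior count of 2 and 100000 permutations within groups (smallest possible p 1e-05). Exon lengths and gene positions came from GENCODE for GRCm38 and promoter sequences from RefSeq. The methods of the study describe RNA from individual hippocampi, and its figures plot each sample as 1 animal. No 2 libraries of a group agreed within sampling noise (chi-square per gene at least 7.78 over 60 pairs). Counting precision is high at these levels, so the spread between mice sets the errors.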

Additional observations from a re-analysis of the deposited data

Results flagged for a closer look

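In 40 sets, the 10 genes in 4 groups, 5 had a mouse whose gap to the next was larger than Dixon's 95% limit, where chance flags about 1 in 20. Pvalb in WTEE mouse 10 was 3594 normalized counts, with the other 5 mice between 1659 and 2046. Cck in WTEE mouse 10 was 19576, with the others between 11071 and 12147. Pvalb in KDSH mouse 18 was 1824, with the others between 1353 and 1463. Cck in KDEE mouse 15 was 14514, with the others between 11329 and 12334, and Reln in KDEE mouse 20 was 5548, with the others between 4222 and 4673.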

How the results depend on the processing

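None of the 10 genes was called in any of the 7 comparisons under any alternative run, DESeq2 and leaving out each library included. Over all genes DESeq2 called more than edgeR, 2 against 0 in WTEE against WTSH, 14 against 0 in KDEE against KDSH, 118 against 0 in WTEE against KDEE, 20 against 0 for the interaction and 41 against 1 for housing over both genotypes, where edgeR with all 24 libraries called 15 and with 1 library left out 0 to 6. Signs of small fold changes were less fixed. With the length slope as a covariate, chosen after seeing the data, fold changes in WTEE against WTSH turned for Gad2 (0.10), Cck (-0.10) and Calb2 (-0.22), and over both genotypes for Cck (-0.084) and Calb2 (-0.069); the cause was not tested. Leaving out 1 library at a time, ranges that crossed 0 were, in WTEE against WTSH, -0.024 to 0.085 for Gad1, -0.13 to 0.045 for Gad2, -0.0052 to 0.20 for Cck and -0.13 to 0.19 for Calb2. In KDEE against KDSH they were -0.065 to 0.025 for Cck and -0.18 to 0.034 for Reln, and over both genotypes -0.0035 to 0.085 for Gad2 and -0.0042 to 0.10 for Cck. The interaction ran from -0.13 to 0.15 for Pvalb and from -0.13 to 0.079 for Sst, the low ends without WTEE mouse 10, and was -0.17 and -0.14 with the length slope; for Sst it was -0.0051 with no filter on low counts. Pvalb over both genotypes stayed between 0.26 (without WTEE mouse 10) and 0.40. Correlated pairs numbered 9 without centring on group means, 8 with all 24 libraries and 3 to 6 with 1 library left out (3 without WTEE mouse 10, 13 or 16 or KDEE mouse 15), against 5. No ratio to Gad1 and Gad2 passed correction with Gad1 alone, with 24 libraries or without WTEE mouse 10. In none of these settings could a single ratio have passed alone. The labels give a group and a sample number for each library but no cage or litter, so no paired analysis was possible. Counting depth limits none of these values. With 4 to 6 mice a group, the spread between mice does, and lanes, which the labels do not give, could not be examined.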
